A study of Macaca fascicularis with 6 samples.

Results

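The genes described here carry pyruvate from outside the oocyte to acetyl-CoA: SLC16A1, which encodes the monocarboxylate transporter MCT1 of the plasma membrane, the mitochondrial pyruvate carrier genes MPC1 and MPC2, the pyruvate dehydrogenase genes PDHA1, PDHB, DLAT and PDHX, and the pyruvate dehydrogenase kinase genes PDK1, PDK3 and PDK4. They were chosen by name, and all 10 were found among the 28164 genes of the deposited count table. The table comes from RNA sequencing of cynomolgus monkey (Macaca fascicularis) oocytes, with 2 libraries in each of 3 groups. The GV group holds immature oocytes that still have the germinal vesicle, the large nucleus of meiotic prophase. IVM MII oocytes were matured in vitro to metaphase II, the arrest point of the second meiotic division, and IVO MII oocytes reached that stage inside the animal (in vivo matured). In every group the oocytes were stripped, wild type and labelled as not treated. Neither the age of the animals nor the number of oocytes and animals behind a library is given in the sources used here, so p-values measure only the spread between these libraries, which may be technical.

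Pyruvate is the main fuel of the mammalian oocyte, which uses glucose poorly and receives pyruvate from the cumulus cells around it. It enters the cell through monocarboxylate transporters and the mitochondrion through a carrier made of MPC1 and MPC2, each of which needs the other for a working carrier. In the matrix the pyruvate dehydrogenase complex turns it into acetyl-CoA: PDHA1 and PDHB form the decarboxylating E1 enzyme, DLAT the acetyl-transferring E2 core, DLD the E3 enzyme that reoxidises the lipoyl arm, and PDHX tethers E3 to the core. The PDK kinases phosphorylate PDHA1 and so turn the complex off, and the PDP phosphatases turn it back on.

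The libraries held 27707021 to 35515139 counts. Levels are given as scaled CPM, the CPM unit (counts relative to library size) after TMM scaling between libraries, and all tests are those of edgeR's quasi-likelihood fit to 15815 genes, with p-values adjusted over all of them and a gene called at an adjusted p under 0.05. A fold change follows from the log2 value of that fit, and a value after ± is its standard error. Levels are relative to the other transcripts of a library. A rise or fall below is meant in that sense, and the amount per oocyte was not measured. All cDNA was primed on poly(A) tails, so a change in the amount of an RNA and a change in its tail cannot be told apart, and in such bulk libraries neither can fewer cells of a type and less RNA per cell. All 20 oocyte markers found in the table had counts. Their summed level was 46622 to 55315 CPM in GV, 26391 to 31082 in IVM MII and 29782 to 33790 in IVO MII. For 23 cumulus and granulosa markers the sum was 35.7 to 41.2 CPM in GV, 86.7 to 88.9 in IVM MII and 38.0 to 54.3 in IVO MII, with STAR, INHA, AMHR2, FOXL2 and PTX3 at 0 in all libraries. GREM1, HAS2, TNFAIP6 and RUNX2 made up most of that sum in IVM MII, while CYP19A1 was called lower there than in GV, and LHCGR, HSD3B2, INHBA, INHBB, GJA1 and NR5A2 had counts in GV and 0 in both IVM MII libraries. For 19 markers of theca, stroma, endothelium and blood it was 345 to 404, 160 to 169 and 95.3 to 103 CPM, with CYP17A1, LUM, KDR and HBB at 0; VWF alone held 288 and 337 CPM of it in GV, whereas PECAM1 was called higher in both MII groups and OGN in IVO MII. The part of these cells in the results below was not tested.

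From GV to MII by either route the carrier gene MPC1, its partner MPC2 and the E1 gene PDHA1 fell, while the transporter gene SLC16A1 and the E2 gene DLAT rose. PDHB also fell and PDK1 also rose from GV to IVO MII, without a call for either from GV to IVM MII. The direct test between the MII groups called both. In IVM MII against GV, 2 of the 9 genes tested were higher and 3 lower. Of all genes tested, 25.6% were higher and 24.7% lower in that comparison (50.3% in either direction). In IVO MII against GV, 3 were higher and 4 lower, where 28.1% of all genes were higher and 30.5% lower (58.5% in all). The shares among the 9 genes, 55.6% and 77.8%, are read against those percentages only as a description, because the genes were chosen with earlier results known. PDK4 was the gene left out by the filter on low counts. Both comparisons use the same GV libraries.

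**Figure D1:**
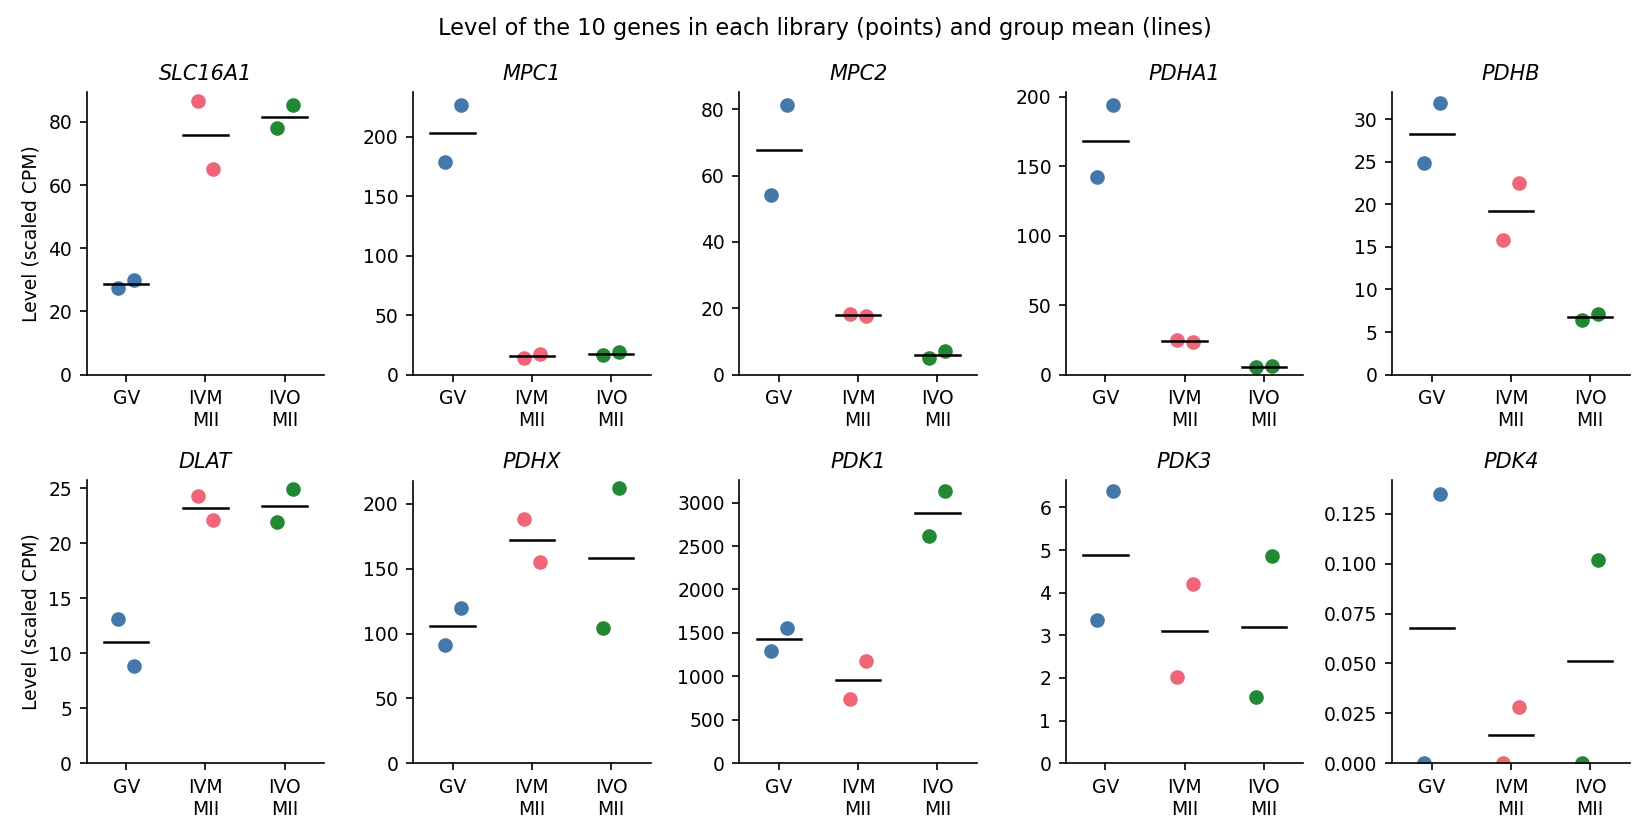
Level of each gene (scaled CPM, linear axes from 0) in the 2 libraries of GV, IVM MII and IVO MII; replicate 1 is the left and replicate 2 the right point, and lines are group means. MPC1, MPC2 and PDHA1 are high in GV and low in both MII groups, SLC16A1 and DLAT the reverse, and PDK1 is highest in IVO MII at 2617 and 3135 CPM.

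SLC16A1 lies on macFas5 chromosome 1, from 113840256 to 113882627, and its product MCT1 moves pyruvate and lactate with a proton. It stood at 27.4 and 30.0 CPM in GV, at 86.5 and 65.2 in the IVM MII pair, and at 78.0 and 85.2 in the IVO MII pair. Every MII library lay above both GV libraries, and the MII groups overlapped. The rise from GV was 2.65-fold in IVM MII (log2 fold change 1.40 ± 0.23, adjusted p = 4.55e-04) and 2.85-fold in IVO MII (1.51 ± 0.23, adjusted p = 1.76e-04). Between the MII groups the log2 difference was -0.10, with a 95% interval from -0.59 to 0.38 and an adjusted p of 0.760.

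Among the 4 transporter genes of this kind, SLC16A1 made up 85.7% and 89.5% of the summed level per kilobase in the GV libraries and 95.1% to 96.4% in the MII libraries. SLC16A7, the high-affinity pyruvate transporter MCT2, held most of the rest, with 11.8% and 8.16% in GV and 3.53% to 4.68% in MII. SLC16A3 and SLC16A8 were at or below 0.783 CPM in every library. SLC16A7 itself averaged 6.25 CPM in GV, 6.16 in IVM MII and 5.99 in IVO MII and had no call in any comparison, so its smaller share went with the rise of SLC16A1.

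MPC1 (chromosome 4, 4372808 to 4392890) had the largest fall of the 9 genes in IVM MII against GV. It was at 179 and 227 CPM in GV, 14.3 and 17.3 in the IVM MII pair, and 16.6 and 18.9 in the IVO MII pair. Both MII groups lay far below GV and overlapped each other. Its level was 12.8-fold lower in IVM MII (-3.68 ± 0.25, adjusted p = 1.55e-06) and 11.4-fold lower in IVO MII (-3.52 ± 0.25, adjusted p = 1.12e-06). Between the MII groups MPC1 differed by -0.17 on the log2 scale, with a 95% interval from -0.66 to 0.33 (adjusted p = 0.629).

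MPC2, the other subunit of the carrier (chromosome 1, 25875767 to 25893720), fell by different amounts on the 2 routes. It was at 54.2 and 81.4 CPM in GV, 18.4 and 17.8 in the IVM MII pair, and 5.10 and 7.03 in the IVO MII pair. No group overlapped another, and IVM MII lay between GV and IVO MII. The level was 3.75-fold below GV in IVM MII (-1.91 ± 0.27, adjusted p = 1.72e-04) and 11.2-fold below in IVO MII (-3.48 ± 0.29, adjusted p = 3.23e-06). The direct difference between the MII groups was 2.97-fold, higher in IVM MII (1.57 ± 0.27, adjusted p = 0.00178).

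Per kilobase of the deposited gene length, MPC1 was 3.56 and 3.01 times as high as MPC2 in GV, 0.839 and 1.05 times in IVM MII, and 3.50 and 2.90 times in IVO MII. The IVM MII libraries were thus the ones in which the 2 subunits stood near equal levels, while the ratios of the GV and IVO MII libraries overlapped. MPC1 and MPC2 are the shortest of the 10 genes, at 931 and 1004 bases. One alternative fit removed from each library any trend of its levels with gene length. With that trend removed, MPC1 was at -3.06 and MPC2 at -1.29 in IVM MII against GV, with -2.62 for MPC1 and -2.61 for MPC2 in IVO MII against GV, and each call held (adjusted p = 0.00121 or lower).

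The genes of the dehydrogenase complex did not move together. Both E1 genes were lower in IVO MII than in GV, the E2 gene DLAT was higher by either route, and PDHX and DLD had no call in any comparison. PDHA1 (chromosome X, 17230626 to 17248806), whose product binds thiamine diphosphate and carries the sites that the kinases phosphorylate, showed the largest change of the 9 genes, from GV to IVO MII. It stood at 142 and 194 CPM in GV, 24.8 and 23.2 in the IVM MII pair, and 5.45 and 6.11 in the IVO MII pair. The groups were in 3 separate ranges, highest in GV and lowest in IVO MII. PDHA1 was 6.99-fold lower than GV in IVM MII (-2.81 ± 0.24, adjusted p = 6.45e-06) and 29.0-fold lower in IVO MII (-4.86 ± 0.27, adjusted p = 5.47e-07). IVM MII was 4.15-fold above IVO MII (2.05 ± 0.24, adjusted p = 1.72e-04).

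Exons of MAP3K15, a gene on the opposite strand, overlap 929 of the 3329 exon bases of PDHA1 in the deposited annotation (27.9%). The counting used no strand option, so reads of the 2 genes cannot be told apart there. MAP3K15, named after its values were seen, had 180 and 207 counts in the GV libraries and 24 to 49 in the MII libraries, against 4156 and 5751 and 141 to 1073 for PDHA1. Its own log2 fold changes against GV were -2.42 in IVM MII and -2.28 in IVO MII, and -0.14 between the MII groups. Its part in the PDHA1 values was not tested.

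PDHB (chromosome 2, 113788486 to 113795256) encodes the beta subunit of E1. Its level was 24.8 and 31.9 CPM in GV, 15.8 and 22.5 in the IVM MII pair, and 6.38 and 7.10 in the IVO MII pair. The IVM MII libraries lay between the other groups, without overlap. The fall in IVO MII was 4.2-fold (-2.07 ± 0.27, adjusted p = 7.52e-05), and IVM MII was 2.84-fold above IVO MII (1.51 ± 0.27, adjusted p = 0.00222). Against GV, IVM MII had a log2 fold change of -0.56 with a 95% interval from -1.13 to 0.01 and no call (adjusted p = 0.0906). It was called lower there when only genes of at least 10 CPM in 2 libraries were fitted (-0.84, adjusted p = 0.0165) or the 4 compared libraries alone (-0.66, adjusted p = 0.0429).

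DLAT (chromosome 14, 108017968 to 108059621), the lipoyl-bearing E2, went the other way. It was at 13.1 and 8.83 CPM in GV, 24.3 and 22.1 in the IVM MII pair, and 21.9 and 24.9 in the IVO MII pair. All 4 MII libraries exceeded both GV libraries, and the MII groups overlapped. The rise was 2.11-fold in IVM MII (1.08 ± 0.26, adjusted p = 0.00499) and 2.13-fold in IVO MII (1.09 ± 0.26, adjusted p = 0.00358). Both calls ended without GV replicate 2 (0.82 with an adjusted p of 0.0658, and 0.83 with 0.0520). The MII groups differed by -0.01 on the log2 scale, with a 95% interval from -0.57 to 0.54.

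PDHX (chromosome 14, 32421265 to 32510421), which binds E3 to the core, stood at 91.0 and 120 CPM in GV, 188 and 155 in the IVM MII pair, and 104 and 212 in the IVO MII pair. The 2 IVO MII libraries differed 2.04-fold, and the lower one lay within the GV range. The log2 fold changes from GV were 0.70 in IVM MII (95% interval 0.02 to 1.37, adjusted p = 0.0783) and 0.58 in IVO MII (-0.09 to 1.26, adjusted p = 0.125), neither a call. Without IVO MII replicate 1 the value for IVO MII was 1.02 and called (adjusted p = 0.00667), and without IVO MII replicate 2 it was -0.01. Without the one or the other IVO MII library the value for IVM MII was called as well (0.71 and 0.72, adjusted p = 0.0200 and 0.0173).

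DLD encodes the E3 enzyme, which the branched-chain and 2-oxoglutarate dehydrogenases also use. Its level was 164 and 143 CPM in GV, 137 and 194 in the IVM MII pair, and 237 and 211 in the IVO MII pair, with log2 fold changes from GV of 0.11 (95% interval -0.40 to 0.62) and 0.55 (0.03 to 1.06, adjusted p = 0.0642). The makeup of the complex's transcripts differed between the groups. Of the summed level per kilobase of the 5 genes, PDHA1 held 31.6% and 39.2% in GV, 7.37% and 5.75% in the IVM MII pair, and 1.39% and 1.48% in the IVO MII pair. PDHB held 9.32% ± 0.996 (SD, n = 2) in GV, 8.01% ± 0.981 in IVM MII and 2.61% ± 0.102 in IVO MII, and the IVM MII libraries overlapped GV for this subunit. DLD held the largest share in 5 of the 6 libraries, from 47.9% in GV replicate 1 to 79.2% in IVO MII replicate 1. In GV replicate 2 it held 37.9%, below PDHA1.

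The ratio of the 2 E1 genes per kilobase, PDHA1 over PDHB, was 3.66 and 3.91 in GV, 1.01 and 0.660 in the IVM MII pair, and 0.548 and 0.552 in the IVO MII pair. The E1 alpha and beta subunits pair one to one in the enzyme. DLAT over PDHA1 per kilobase went from 0.0714 and 0.0349 in GV to 0.751 and 0.731 in the IVM MII pair, and 3.09 and 3.13 in the IVO MII pair. These ratios were chosen after the values were seen, and each keeps the 3 groups in separate ranges.

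**Figure D2:**
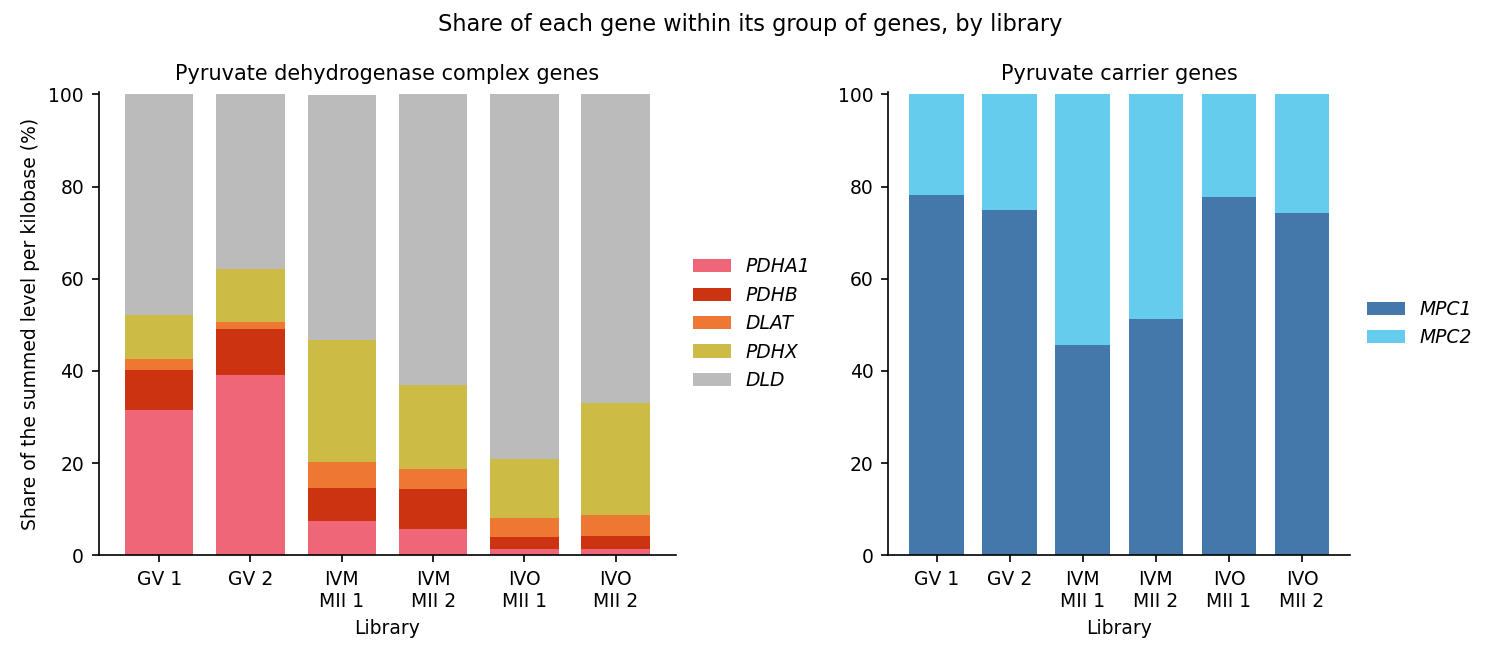
Share of each gene in the summed level per kilobase (percent), by library, for the 5 genes of the pyruvate dehydrogenase complex (left) and the 2 carrier genes (right). PDHA1 shrinks from 31.6% and 39.2% in GV to 1.39% and 1.48% in IVO MII, and MPC1 holds 45.6% and 51.3% in IVM MII but 74.3% to 78.1% in GV and IVO MII.

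Among the kinases, PDK1 was by far the most abundant transcript in every group. PDK1 lies on chromosome 12, from 61478962 to 61596626, and is a target of the hypoxia factor HIF1 in many cells. Its level was 1287 and 1561 CPM in GV, 739 and 1178 in the IVM MII pair, and 2617 and 3135 in the IVO MII pair. IVO MII was highest and IVM MII lowest, without overlap between groups, and the IVM MII libraries differed 1.59-fold from each other. PDK1 rose 2.02-fold from GV to IVO MII (1.01 ± 0.29, adjusted p = 0.0105). That call ended without GV replicate 1 (0.89, adjusted p = 0.0827), with the filter of 10 CPM (0.68, adjusted p = 0.0569) and with the length trend removed (0.73, adjusted p = 0.0532).

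In IVM MII the log2 fold change of PDK1 from GV was -0.57, with a 95% interval from -1.20 to 0.06 and no call (adjusted p = 0.119). It was called lower without IVM MII replicate 2 (-0.93, adjusted p = 0.0367), with the filter of 10 CPM (-0.85, adjusted p = 0.0285) and with the length trend removed (-0.82, adjusted p = 0.0365). The direct difference between the MII groups was 3.00-fold, lower in IVM MII (-1.59 ± 0.30, adjusted p = 0.00276), and it ran from -1.96 to -1.26 over the libraries left out in turn, each time with a call.

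PDK3 (chromosome X, 22459899 to 22533701) was a minor transcript. It had 3.37 and 6.39 CPM in GV, 2.01 and 4.21 in the IVM MII pair, and 1.55 and 4.86 in the IVO MII pair, from 40 to 189 counts per library. All groups overlapped, replicate 2 exceeded replicate 1 by 1.90-fold to 3.14-fold in each, and no comparison gave a call. The 95% interval of the log2 difference between the MII groups ran from -1.22 to 1.11, so a 2-fold difference either way lies within it. Without IVO MII replicate 2, PDK3 was called lower in IVO MII than in GV (-1.64, adjusted p = 0.0150).

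PDK4 (chromosome 3, 116390685 to 116402886), the kinase that fasting and fatty acids induce in muscle and liver, was at the limit of detection. Its counts were 0 and 4 in GV, 0 and 1 in the IVM MII pair, and 0 and 3 in the IVO MII pair, which is at most 0.135 CPM. A library without a count allows up to 3 counts, 0.0695 to 0.116 CPM depending on the library, and no fold change is given. PDK2, the remaining kinase, widely expressed in other tissues, had 2.89 and 3.96 CPM in GV, 1.02 and 0.739 in the IVM MII pair, and 1.58 and 3.16 in the IVO MII pair. It was 3.87-fold lower in IVM MII than in GV (-1.95 ± 0.45, adjusted p = 0.00381). Its difference between the MII groups (-1.43, adjusted p = 0.0375) lost the call without GV replicate 2, IVO MII replicate 2 or either IVM MII replicate (-1.65 to -0.83), and with limma-voom, library totals or the 4 compared libraries alone.

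Of the summed level per kilobase of the 4 kinase genes, PDK1 made up 97.6% to 99.6% in all 6 libraries. PDK3 held 1.01% and 1.56% in GV, 1.05% and 1.38% in the IVM MII pair, and 0.230% and 0.601% in the IVO MII pair, and PDK2 at most 0.793% in any library. The kinase transcripts of these oocytes were thus nearly all PDK1 in each group.

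**Figure D3:**
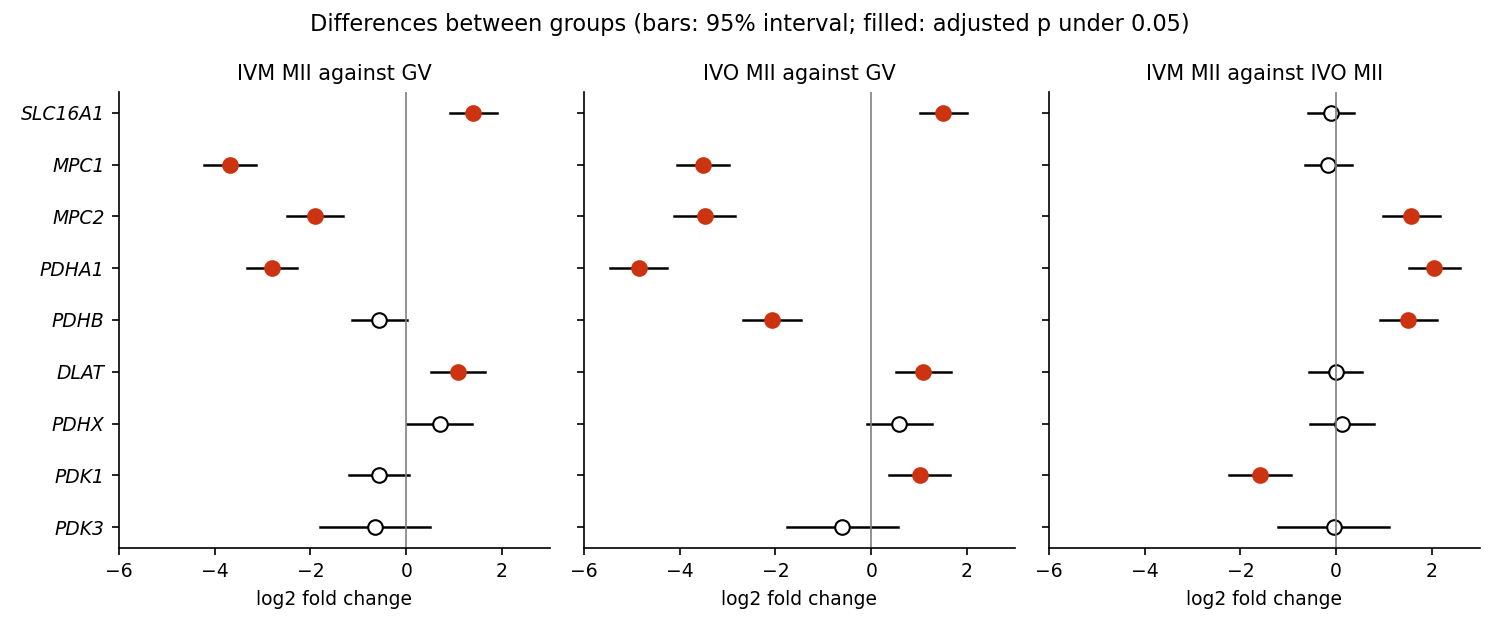
Log2 fold change (points) with 95% interval (bars) of the 9 genes tested in the 3 comparisons; filled points have an adjusted p under 0.05. PDHA1, PDHB and MPC2 are higher and PDK1 lower in IVM MII than in IVO MII, while SLC16A1, MPC1, DLAT, PDHX and PDK3 have intervals that include 0 there.

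Set side by side, the MII groups differed in the E1 genes, in MPC2 and in PDK1. Of the 9 genes tested, 3 were higher in IVM MII and 1 was lower, 44.4% in all, where 14.3% of all genes were higher, 10.3% lower and 24.6% called in either direction. In each of the 3 higher genes, PDHA1, MPC2 and PDHB, the IVM MII libraries lay below GV and above IVO MII, without overlap. Each of these 4 calls held under all 10 processing alternatives and without each of the 6 libraries in turn. The summed level of the cumulus and granulosa list, given above, was also higher in IVM MII than in IVO MII. GREM1, TNFAIP6 and RUNX2 were called higher there, not the list as a whole. HAS2 had no call and overlapped, with a mean of 18.7 CPM against 22.2 for the IVO MII pair. The part of such cells in the differences between the MII groups was not tested.

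**Figure D4:**
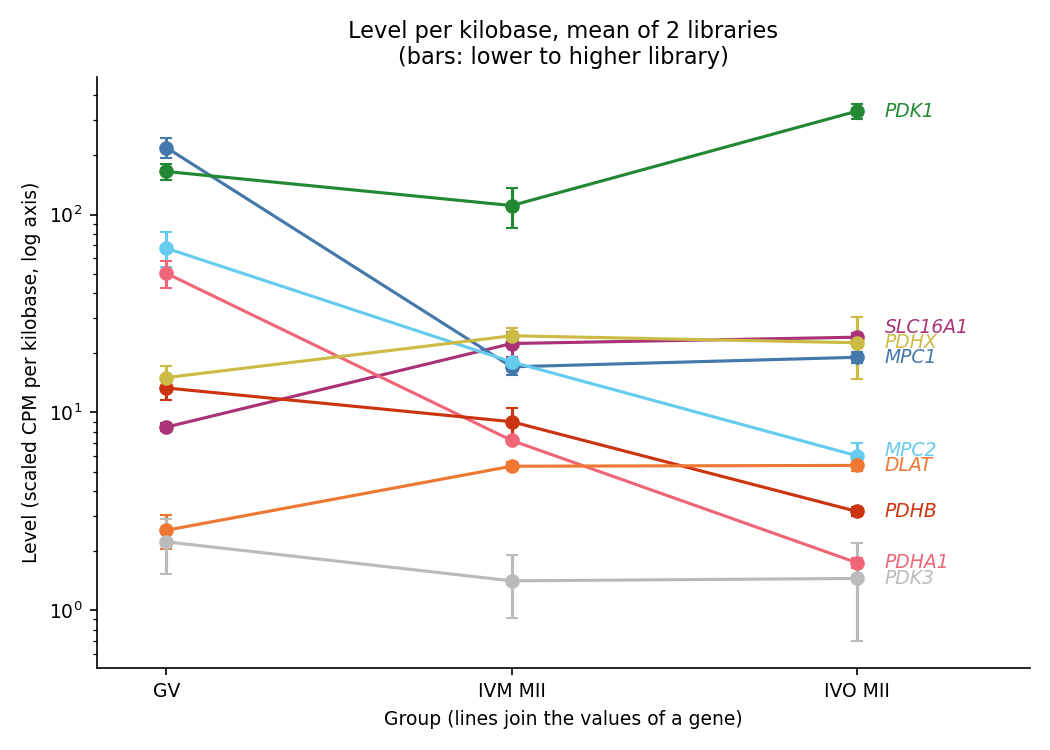
Level per kilobase (scaled CPM per kilobase, log axis) of the 9 genes tested, as means of 2 libraries per group with bars from the lower to the higher library. PDK1 is at 165 CPM per kilobase in GV, 111 in IVM MII and 333 in IVO MII, while PDHA1 goes from 50.5 to 7.22 and 1.74.

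Per kilobase, the order of the 10 genes in GV was MPC1 (218 CPM per kilobase), PDK1 (165), MPC2 (67.6), PDHA1 (50.5), PDHX (15.0), PDHB (13.3), SLC16A1 (8.43), DLAT (2.54), PDK3 (2.22) and PDK4 (0.0248). The neighbours MPC2 and PDHA1, PDHX and PDHB, and DLAT and PDK3 overlapped between libraries. In IVM MII PDK1 came first at 111, ahead of PDHX at 24.4 and SLC16A1 at 22.3, which overlapped, and PDHA1 came seventh at 7.22, overlapping PDHB at 8.98. In IVO MII PDK1 led at 333, SLC16A1 (24.0), PDHX (22.5) and MPC1 (19.0) overlapped in turn, and PDHA1 (1.74) and PDK3 (1.45) overlapped near the end. Against all genes tested, PDK1 stood at the 96.8th percentile of levels per kilobase in GV, 96.0th in IVM MII and 98.7th in IVO MII, and PDHA1 at the 90.9th, 68.8th and 47.8th.

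Per kilobase the ratio of PDK1 to PDHA1, the kinase and its substrate, was 3.51 and 3.10 in GV, 11.5 and 19.6 in the IVM MII pair, and 185 and 198 in the IVO MII pair. With the 929 bases shared with MAP3K15 taken out of the length of PDHA1, it was 2.53 and 2.23, 8.28 and 14.1, and 134 and 143. The second version kept all PDHA1 counts and scaled every library alike, so it could not change the order of the groups. In the first, the groups did not overlap, and the ratio was chosen after the values were seen. It compares transcripts and says nothing of protein or of phosphorylation.

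Among the subunit genes of the phosphatases that oppose the kinases, PDP1 was called higher than in GV only in IVM MII. PDPR was called higher in both MII groups, and PDP2 had no call. PDP1, the catalytic subunit activated by calcium, stood at 36.7 and 25.9 CPM in GV, 61.2 and 92.8 in the IVM MII pair, and 46.5 and 51.2 in the IVO MII pair. It rose 2.46-fold from GV to IVM MII (1.30 ± 0.27, adjusted p = 0.00190). The log2 fold change of 0.64 in IVO MII (95% interval 0.07 to 1.22, adjusted p = 0.0532) and the difference of 0.66 between the MII groups (0.09 to 1.23, adjusted p = 0.0871) were not called. PDP2 averaged 1.80 CPM in GV, 1.08 in IVM MII and 1.69 in IVO MII. PDPR, the regulatory subunit, was 3.45-fold higher in IVO MII than in GV (6.33 against 1.83 CPM, log2 fold change 1.79 ± 0.36, adjusted p = 0.00124). Its rise in IVM MII (1.10, adjusted p = 0.0233) lost the call without either GV replicate or IVM MII replicate 1 (0.78 to 1.14). Per kilobase, a ratio chosen after the values were seen, PDK1 was 19.8 and 34.1 times PDP1 in GV, 6.83 and 7.17 times in IVM MII, and 31.9 and 34.6 times in IVO MII, so the IVM MII libraries lay below all others.

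The rest of the pyruvate dehydrogenase system, a list of 21 genes for cofactors, regulators and the related dehydrogenases, had 19 genes tested. In IVM MII against GV 5 were higher and 7 lower, with a median log2 fold change of -0.45 against 0.06 for all genes tested. There 3 were higher when either GV library was left out, and 3 were lower without GV replicate 2 and 4 without IVM MII replicate 1. In IVO MII against GV 4 were higher and 4 lower (2 lower without GV replicate 2), with a median of -0.02 against -0.07. Between the MII groups 0 were higher and 2, BCKDK and PDK2, were lower in IVM MII, with a median of -0.04 against 0.02. The count of 0 is edgeR's; at an unadjusted p under 0.05 it was 1, DESeq2 gave 0, limma-voom gave 0 and library totals gave 1. The BCKDK call was lost without replicate 2 of IVM MII (-0.85, adjusted p = 0.168) or of IVO MII (adjusted p = 0.0623), and with library totals (-1.02).

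Within that list the genes that attach lipoic acid to E2 fell by both routes. LIPT1, the lipoyltransferase, was at 124 CPM in GV and fell to 33.3 in IVM MII (-1.90 ± 0.26, adjusted p = 1.59e-04) and 23.2 in IVO MII (-2.42 ± 0.27, adjusted p = 2.38e-05). LIPT2, the octanoyltransferase, went from 10.4 to 3.68 and 3.14 CPM (adjusted p = 0.00196 and 6.25e-04). LIAS, the lipoyl synthase, was called lower too, but both calls ended without either GV replicate (-1.01 to -0.95, adjusted p = 0.0965 or higher), and that of IVM MII also without its own replicate 1 (-0.60), that of IVO MII without its own replicate 2 (-0.75). Both also ended with the length trend removed (-0.57 and -0.35), and that of IVM MII with library totals (-0.74, adjusted p = 0.0816). So the E2 gene DLAT rose while LIPT1 and LIPT2 fell. As with PDHA1, exons of an opposite-strand gene overlap 284 bases of LIPT1 (18.4%) and 290 bases of LIPT2 (13.9%). The part of those genes in the LIPT1 and LIPT2 values was not tested.

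In the branched-chain dehydrogenase, a related complex, the E1 beta gene BCKDHB rose 2.36-fold in IVM MII and 2.19-fold in IVO MII (adjusted p = 9.05e-04 and 0.00111). Its E2 gene DBT rose 2.27-fold and 1.85-fold (adjusted p = 0.00148 and 0.00615). The E1 alpha gene BCKDHA was lower in both, at 0.239 and 0.177 CPM against 1.66 in GV, and both calls ended without GV replicate 2 (-1.99 and -2.44, adjusted p = 0.146 and 0.0784); that of IVM MII also ended without IVM MII replicate 2 (-2.05).

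**Figure D5:**
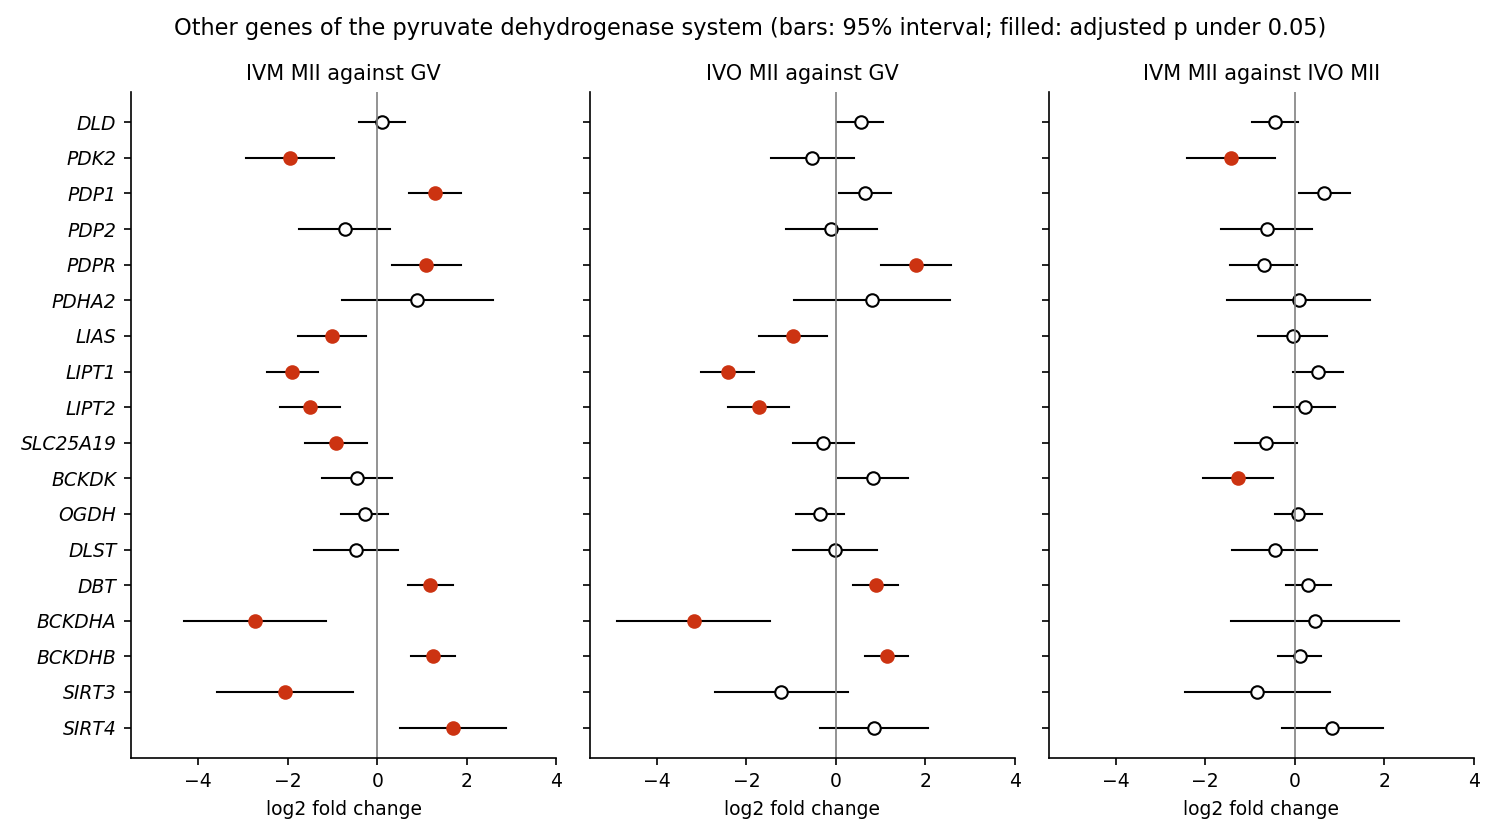
Log2 fold change (points) with 95% interval (bars) of 18 of the 19 tested genes of the rest of the pyruvate dehydrogenase system in the 3 comparisons; filled points have an adjusted p under 0.05. LIPT1 and LIPT2 lie left of 0 and BCKDHB and DBT right of 0 against GV in both MII groups, and between the MII groups only PDK2 and BCKDK are filled.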

How the data were processed

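The deposited values are raw counts of sequenced fragments for each gene in 6 libraries. Per the file headers, the authors made these counts with featureCounts 2.0.1 as fragments over exons, summed by gene, with no strand option, on the RefSeq annotation of macFas5; deposited gene lengths are exon bases. Per the submitters' processing notes, fastp, FastQC, Bowtie2 and SAMtools were also used. Bowtie2 makes no spliced alignments, so reads across exon junctions may be missing, which touches levels compared between genes. Of 11294 LOC identifiers, 721 were given a symbol by gene number from a RefSeq table of a later assembly; coordinates are those of the file.

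edgeR 4.0.16 (R 4.3.3) filtered genes by filterByExpr, leaving out 12349, computed TMM factors (0.903 to 1.22) and fitted all 6 libraries in one robust quasi-likelihood model with group terms; two-sided tests had Benjamini-Hochberg adjustment over all genes tested. Intervals are at 95% from the fit. The procedure was tested on simulated data. Alternatives were DESeq2 1.42.0, limma-voom (limma 3.58.1), RLE factors, library totals, 2 other filters, the 4 compared libraries, the replicate block, a non-robust fit, removal of the length trend, and each library left out, which leaves a lone library assumed to vary like the other groups. Levels of different genes were compared per 1000 bases. Floors and counts cover counting error only. Figures were drawn with matplotlib 3.10.9.

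The members and lists were chosen with earlier results of these data known. All 10 members were named; of other lists, up to 3 genes per direction and comparison by adjusted p, genes used in a share, PDK2 and the PDP genes; others were chosen after their values were seen. One gene of the list of the rest of the pyruvate dehydrogenase system is counted with it but not reported here by name.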

Additional observations from a re-analysis of the deposited data

How the results depend on the processing

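Across 267 fits of a member under a processing alternative, 249 kept direction and side of the threshold, and across 162 with 1 library left out, 146 did. In IVM MII against GV, DLAT was no longer called higher without GV replicate 2 (0.82). PDHX was called higher as well without either IVO MII library (0.71 and 0.72). The members lower in that comparison numbered 5 in place of 3 with the filter of 10 CPM in 2 libraries. Apart from these, the counts of members stayed within 1.5 times. The replicate number was no given link between libraries, and the deviations of same-numbered libraries correlated at -0.144, 0.178 and -0.114; with the replicate block the members higher and lower numbered 2 and 3, 3 and 4, and 3 and 1 in the 3 comparisons, and no member's call changed. Of the other genes named here it ended the calls of PDK2 between the MII groups (-1.35, adjusted p = 0.0574) and of PPARGC1A in IVM MII against GV (-2.64, adjusted p = 0.053).

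Directions turned only for values without a call. Between the MII groups these were MPC1 (0.04), DLAT (0.21), SLC16A1 (0.13) and PDK3 (0.11) with library totals, DLAT without a filter (0.01), with the filter of 10 CPM (0.04) and with the 4 libraries alone (0.02), and PDK3 with limma-voom (0.03) and the replicate block (0.05). Over the libraries left out, values between the MII groups ran from -0.10 to 0.09 for DLAT, -0.30 to 0.73 for PDHX, -0.67 to 1.02 for PDK3 and -0.29 to 0.09 for SLC16A1, and in IVO MII against GV from -0.01 to 1.02 for PDHX and -1.64 to 0.01 for PDK3. PDHX in IVM MII against GV was also called with library totals (1.01), no filter (0.73) and the 4 libraries alone (0.61). The cause of these changes was not tested.

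Library totals moved the median of all genes from 0.06 to 0.35 in IVM MII against GV and from 0.02 to 0.24 between the MII groups, with 5272 genes higher and 3004 lower in place of 4053 and 3908, and 2803 and 894 in place of 2260 and 1635; removing the length trend moved that of IVO MII against GV from -0.07 to 0.14. With the filter of 10 CPM, which tests 8048 genes (2268 higher and 2352 lower in IVM MII against GV), the regulators list had 2 higher in place of 8 in both comparisons with GV, and the rest of the dehydrogenase system 2 lower in place of 7 in IVM MII against GV (3 to 7 over libraries left out). That filter leaves PDK2, LIPT2, LIAS, BCKDHA and SIRT3 of the 7 lower untested, and PPARA, PPARG and PPARD of the regulators. Their calls were thus not tested again. Other regulators were tested and lost a call, such as HIF1A in IVO MII against GV (0.47). With library totals the other uses of pyruvate had 3 lower in place of 6 in IVM MII against GV. With raw counts in place of levels per kilobase, PDHX held 22.5%, 42.7% and 36.9% of the complex in GV, IVM MII and IVO MII in place of 10.5%, 22.3% and 18.4%, while PDHA1 held 35.8%, 5.97% and 1.39%. With the bases shared with MAP3K15 taken out of its length only, an alternative chosen after seeing the data, PDHA1 held 43.1%, 8.87% and 1.98%. All PDHA1 counts were kept there, so these are not shares of its unshared exons. Depth limits PDK4, and PDK3 is limited by the spread between its libraries.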

Other observations

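Of the lactate dehydrogenase genes, which interconvert pyruvate and lactate, LDHC, LDHAL6A and LDHAL6B were higher in IVM MII than in IVO MII. LDHD and the gene model named LDHA (described below) had no call there. LDHC, the germ cell form of lactate dehydrogenase (gene identifier LOC101925242), averaged 66.5 CPM in GV, 187 in IVM MII and 34.6 in IVO MII. It was 5.39-fold above IVO MII in IVM MII (2.43 ± 0.23, adjusted p = 4.52e-05). LDHAL6A, a related gene on the same chromosome, stood at 1985, 1921 and 678 CPM and was 2.83-fold higher in IVM MII than in IVO MII (adjusted p = 0.00212), and LDHAL6B was 2.89-fold higher (adjusted p = 0.00125). LDHB had at most 14 counts in any library. The gene that the later RefSeq table calls LDHA (LOC101867330, chromosome 17) has 1599 of its 1627 bases in a single exon and fell from 72.2 CPM in GV to 33.7 and 24.8 (adjusted p = 0.00127 and 9.83e-05), with 0.44 on the log2 scale between the MII groups (95% interval -0.01 to 0.90, adjusted p = 0.142). Lactate dehydrogenase genes are near copies of each other, so the division of reads among them is uncertain. In the list of 14 transport and lactate genes, 12 were tested, with 3 higher and 1 lower in IVM MII against GV, 3 and 6 in IVO MII against GV, and 3 and 1 between the MII groups; in IVM MII against GV 2 were lower when either IVO MII library was left out. The one lower between the MII groups was NPTN, a chaperone of monocarboxylate transporters, at 30.5 CPM in GV, which rose to 65.5 in IVM MII and 112 in IVO MII (adjusted p = 0.00281 and 7.01e-05 against GV). Its call between the MII groups (-0.77, adjusted p = 0.0345) ended without IVO MII replicate 2 or either IVM MII replicate (-0.86 to -0.63), and with library totals (-0.55).

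Among other uses of pyruvate and acetyl-CoA, 10 of 13 genes were tested. The shares of all genes called higher and lower were 25.6% and 24.7% in IVM MII against GV, and 28.1% and 30.5% in IVO MII against GV. Between the MII groups they were 14.3% and 10.3%. In IVM MII against GV 2 of the list were higher and 6 lower, in IVO MII against GV 2 and 5, and between the MII groups 1 and 1. In IVM MII against GV 3 were lower without IVM MII replicate 2, and 1 was higher without GV replicate 2 or IVM MII replicate 1; in IVO MII against GV 1 was higher without GV replicate 2. ACSS2, which makes acetyl-CoA from acetate, fell from 19.8 CPM to 1.77 in IVM MII and 1.39 in IVO MII (adjusted p = 1.12e-05 and 5.11e-06). The mitochondrial malic enzymes went opposite ways from GV to IVO MII, ME2 from 53.0 to 173 CPM (adjusted p = 2.01e-04) and ME3 from 18.6 to 4.21 (adjusted p = 6.68e-05). The pyruvate kinase gene PKM fell 2.78-fold and 3.14-fold (adjusted p = 0.00304 and 0.00125). PCK1, PCK2 and GPT had 0 counts in all libraries.

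In the list of 18 regulators of PDK genes, 16 were tested. The shares of all genes called higher and lower were 25.6% and 24.7% in IVM MII against GV, and 28.1% and 30.5% in IVO MII against GV. Between the MII groups they were 14.3% and 10.3%. Of the list, 8 were higher and 3 lower in IVM MII against GV, and 8 and 2 in IVO MII against GV. Between the MII groups 0 were higher and 1 lower by edgeR (higher were 1 at an unadjusted p under 0.05, 1 with no filter, 0 by DESeq2 and 0 by limma-voom). Without GV replicate 2 the higher genes numbered 4 in each comparison with GV, and 5 without IVM MII replicate 1 in IVM MII against GV. The lower gene between the MII groups was PPARGC1A, at 0.0684 against 1.13 CPM, and its call was lost without replicate 1 of IVM MII (-3.23) or of IVO MII (-2.45). FOXO3, a transcription factor, rose from 41.1 CPM to 85.6 in IVM MII and 112 in IVO MII (adjusted p = 0.00192 and 1.79e-04), and EGLN2, a prolyl hydroxylase of HIF1, fell from 7.78 to 1.41 and 0.971 (adjusted p = 1.97e-04 and 4.78e-05). ESRRA, a nuclear receptor of mitochondrial genes, fell from 4.50 to 0.639 and 0.559 CPM (adjusted p = 5.05e-04 and 2.53e-04). HIF1A, named after its values were seen, stood at 117 CPM in GV, 207 in IVM MII and 204 in IVO MII. The rises from GV (adjusted p = 0.00774 and 0.00704) ended without GV replicate 2 (0.72 and 0.70), and that of IVO MII with the filter of 10 CPM (0.47, adjusted p = 0.0607). Between the MII groups its log2 difference was 0.02 with a 95% interval from -0.44 to 0.48.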
